A study of Mus musculus with 4 samples.

Results

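Tropomyosins are encoded in the mouse by 4 genes, Tpm1, Tpm2, Tpm3 and Tpm4, and each of the first 3 makes many proteins by alternative splicing. All transcripts that the mRNA data list for these genes were taken, 43 of 75959 transcripts, with 25 of Tpm1, 4 of Tpm2, 13 of Tpm3 and 1 of Tpm4. Of the 43, 20 are curated RefSeq transcripts (accessions that begin with NM_), which carry isoform names of the tropomyosin nomenclature, and the others are predicted variants numbered with X. The RNA came from C3H10T1/2 cells, a mesenchymal stem cell line that was derived from C3H mouse embryos. In the untreated group there were 2 samples (replicates 1 and 2), which received no agent and for which no culture time is given. The 5-AZA group held 2 samples (replicates 101 and 102), incubated with 20 μM 5-azacytidine (5-AZA), a cytidine analogue that blocks the maintenance of DNA methylation, for 72 hours and then kept in fresh growth medium for 21 days. With no culture time given for the untreated samples, 5-AZA and time in culture cannot be told apart in any comparison of the groups. The study calls the samples of a group biological repeats without describing separate cultures, so the p-values measure the spread between these samples only, which may be technical.

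Tropomyosin is a coiled-coil protein that lies end to end along actin filaments. In striated muscle it holds the troponin complex and blocks the myosin-binding sites of actin until calcium rises, whereas in other cells different isoforms mark different actin filaments, among them stress fibers. The isoforms of a gene share most exons. They differ in the promoter and first exon, in an internal exon and in the last exon. Tpm1.1, Tpm2.2 and Tpm3.12 are the isoforms of the striated muscle thin filament that are also known as alpha, beta and gamma tropomyosin. Tpm1.6, Tpm1.7, Tpm1.8, Tpm1.9, Tpm2.1, Tpm3.1, Tpm3.2 and the product of Tpm4 are cytoskeletal isoforms of fibroblasts and other cells.

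The values are FPKM, fragment counts scaled to transcript length and library size, which compare levels between transcripts and genes per length. FPKM sums over all mRNA transcripts ranged from 328410 to 361664 in the 4 samples. The number of fragments behind a single value is unknown. Log2 values with 0.1 FPKM added were compared with limma over all genes or transcripts with a mean of at least 0.1 FPKM. A feature was called at an adjusted p below 0.05 (Benjamini-Hochberg) together with a log2 change above 1 in size. With 2 samples against 2, an exact permutation test could not give a p below 0.333. All 7 skeletal muscle markers examined were called higher after 5-AZA, and their summed level was 0.840 to 1.02 FPKM in untreated and 648 to 998 FPKM in 5-AZA samples. Of 5 adipocyte markers 4 were called higher, with sums of 11.8 to 28.7 and 1008 to 1379 FPKM. The 6 cardiac markers summed to 0.321 to 0.370 and 1.62 to 3.51 FPKM, with Nppa, Nppb and Myl7 listed at 0 in all samples and Myh6 and Tnni3 called higher. The 6 smooth muscle markers summed to 196 to 200 and 226 to 318 FPKM, with Cnn1 and Des called higher and Myh11 at no more than 0.152 FPKM. Acta2, Smtn and Lmod1 were not called, although Lmod1 was higher past the p-value threshold (adjusted p = 0.00872, limma) and below a 2-fold change. The study uses Des as a myogenic marker, so its rise is not particular to smooth muscle. Of the 5 mesenchymal markers, which summed to 3022 to 3090 and 1713 to 1997 FPKM, only Thy1 was called, and it was higher. Vim, Col1a1 and Col1a2 were lower, past the p-value threshold but below a 2-fold change (adjusted p = 0.00119, 0.0402 and 0.0381, limma). Pdgfrb did not pass the test. Over all genes tested, 13.1% were called higher. Ckm, Myog, Myh3, Actn2, Ttn, Cidec, Myh6 and Cnn1 had untreated means below 0.1 FPKM and entered the test through their 5-AZA samples only. The counts of their marker lists are therefore not read as support.

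The summed level of the 4 tropomyosin genes was 608 and 587 FPKM in the untreated samples and 889 and 1048 FPKM in the 5-AZA samples, a 1.62-fold ratio of the means. Only Tpm2 was called among the 4 genes. Over all 13199 genes tested, 14.4% were called and 13.1% were called higher and 1.32% lower. The values of the 2 groups did not overlap for 3 of the 4 genes, Tpm3 being the exception, and 62.2% of all genes tested did not overlap either. In these bulk samples a change in the number of cells that express a gene and a change in the RNA per cell cannot be told apart.

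Tpm1 had the highest level of the 4 genes in every sample. Its transcripts summed to 281 and 288 FPKM in the untreated and to 445 and 552 FPKM in the 5-AZA samples. Both 5-AZA samples were above both untreated ones, and the log2 difference was 0.80 ± 0.12 (SE, adjusted p = 0.00151, limma), past the p-value threshold but below a 2-fold change. Without 5-AZA replicate 102 the log2 difference was 0.64 (adjusted p = 0.0530, limma), and without the limit on low values the adjusted p was 0.0729.

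Tpm2 was the lowest of the 4 genes in untreated cells, at 30.4 and 28.2 FPKM, and reached 128 and 189 FPKM after 5-AZA. It rose 5.41-fold between the group means, with a log2 change of 2.40 ± 0.17 (SE, adjusted p = 1.62e-05, limma). By the order of the mean levels among 21878 genes, Tpm2 stood at position 1901 in untreated and at 333 in 5-AZA samples.

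Tpm3 was measured at 102 and 97.2 FPKM in untreated and at 90.2 and 99.8 FPKM in 5-AZA samples. These ranges overlapped, and the log2 difference was -0.07 ± 0.10 (SE, adjusted p = 0.668, limma).

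Tpm4 was measured at 194 and 174 FPKM in untreated and at 227 and 207 FPKM in 5-AZA samples. The groups did not overlap, but the log2 difference of 0.23 ± 0.10 (SE, adjusted p = 0.143, limma) did not pass the test. In untreated cells the order of the levels was thus Tpm1, Tpm4, Tpm3 and Tpm2, with no overlap between neighbours. After 5-AZA the order was Tpm1, Tpm4, Tpm2 and Tpm3, and again no neighbours overlapped, although Tpm2 replicate 102 lay close to Tpm4. Of the summed tropomyosin level, Tpm2 held 5.00% and 4.80% in untreated and 14.4% and 18.1% in 5-AZA samples, while Tpm3 held 16.8% and 16.5% and then 10.1% and 9.52%.

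**Figure D1:**
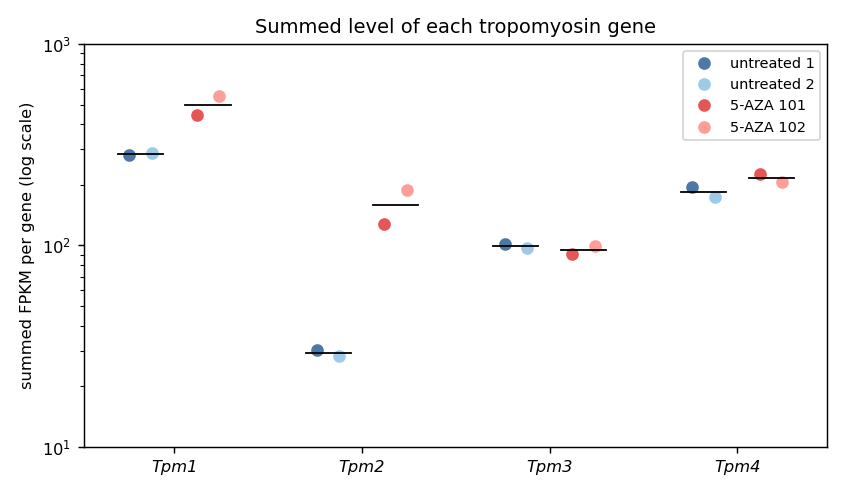
Summed FPKM of the transcripts of each tropomyosin gene on a log scale, with 1 point per sample and a black line at the mean of each group. Tpm2 lies at 28.2 to 30.4 FPKM in untreated and at 128 to 189 FPKM in 5-AZA samples, Tpm1 at 281 to 288 and 445 to 552 FPKM, and the groups overlap for Tpm3.

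The starts of these genes are shown because the muscle and the cytoskeletal isoforms of Tpm3 are known to begin at separate promoters, the upstream one for the muscle forms, whereas Tpm1 and Tpm2 muscle isoforms share the upstream start with cytoskeletal ones. Promoter windows from RefSeq (build GRCm38.p6) matched all 4 genes, with 5 windows in all and 2 of them for Tpm3, 6870 bases apart. Each line below gives the 250 bases before the start, 5′ to 3′ on the strand of the gene, with CG dinucleotides, the sites of DNA methylation, in capitals. The windows lie at chr3:90072401-90072650 (plus strand), chr3:90079271-90079520 (plus strand), chr9:67049214-67049463 (minus strand) and chr4:43523555-43523804 (minus strand).
Tpm3 upstream start: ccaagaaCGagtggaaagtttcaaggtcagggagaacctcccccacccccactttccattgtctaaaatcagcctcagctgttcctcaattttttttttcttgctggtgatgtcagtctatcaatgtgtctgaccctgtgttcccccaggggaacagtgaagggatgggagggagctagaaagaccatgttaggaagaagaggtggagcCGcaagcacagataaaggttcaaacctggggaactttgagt
Tpm3 downstream start: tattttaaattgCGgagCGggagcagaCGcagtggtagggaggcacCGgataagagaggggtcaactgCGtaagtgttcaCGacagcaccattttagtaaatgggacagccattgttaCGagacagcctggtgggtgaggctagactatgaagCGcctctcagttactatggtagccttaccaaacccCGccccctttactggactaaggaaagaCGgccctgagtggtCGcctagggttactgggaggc
Tpm1: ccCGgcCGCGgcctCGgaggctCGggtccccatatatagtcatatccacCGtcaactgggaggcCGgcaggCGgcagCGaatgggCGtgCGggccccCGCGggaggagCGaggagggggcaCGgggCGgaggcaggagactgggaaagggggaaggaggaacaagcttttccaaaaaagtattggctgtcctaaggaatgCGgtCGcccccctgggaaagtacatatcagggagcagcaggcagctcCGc
Tpm2: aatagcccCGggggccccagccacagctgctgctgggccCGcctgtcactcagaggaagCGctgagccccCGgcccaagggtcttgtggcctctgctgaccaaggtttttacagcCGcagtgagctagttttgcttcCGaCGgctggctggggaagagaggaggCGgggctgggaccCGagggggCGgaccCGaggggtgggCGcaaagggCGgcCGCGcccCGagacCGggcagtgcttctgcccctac

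The window of the Tpm3 upstream start held 2 CG dinucleotides, and 29.0% of 32851 RefSeq windows of the same length held as few or fewer. The Tpm3 downstream start held 11, Tpm1 19, Tpm2 17 and Tpm4 27, against a median of 6 over all windows. An E-box (CANNTG, the core of the sites bound by MyoD and related factors, both strands) was present once in both Tpm3 windows and in those of Tpm1 and Tpm2, and in none for Tpm4, while 66.2% of all windows held it. An M-CAT motif (CATTCC, both strands) was present in the Tpm1 window only, beginning 56 bases before the start, and in 12.6% of all windows. A CArG box, present in 1.47% of all windows, and a MEF2 site, present in 2.92%, were not found in the 5 windows, which says only that these letters are not there. DNA methylation was not measured in these samples, and the windows are given as a description.

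At the level of single transcripts, 27 of the 43 tropomyosin transcripts had a mean of at least 0.1 FPKM and were tested. The 16 others did not exceed 0.202 FPKM in any sample. After 5-AZA 6 transcripts were called higher, Tpm1.1 and Tpm1.13 of Tpm1, Tpm2.2 and the predicted variant X1 of Tpm2, and Tpm3.12 and Tpm3.13 of Tpm3, and 0 were called lower. Over all 35557 transcripts tested, 2.36% were called, with 2.1% higher and 0.262% lower, and the groups did not overlap for 46.5%. Of the 6, Tpm3.12 and Tpm3.13 passed the limit on low values through their 5-AZA samples, so the count is not read as support.

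Tpm1.1 (NM_001164248.1), alpha tropomyosin of striated muscle, was measured at 2.35 and 3.04 FPKM in untreated and at 124 and 202 FPKM in 5-AZA samples. It rose 60.5-fold between the group means, a log2 change of 5.84 ± 0.26 (SE, adjusted p = 0.00121, limma), and all of its 5-AZA values lay above all untreated ones. Tpm1.6 (NM_024427.4), the cytoskeletal isoform that leads in this gene, was at 226 and 233 FPKM and then at 256 and 259 FPKM. Its groups did not overlap, but the log2 difference was 0.17 ± 0.07 (SE, adjusted p = 0.355, limma). Tpm1.1 thus amounted to 0.0104 and 0.0130 of the Tpm1.6 level in untreated and to 0.484 and 0.781 of it in 5-AZA samples. Of the difference between the group means of the Tpm1 sum, Tpm1.1 accounted for 75.01% and Tpm1.6 for 13.2%. Without Tpm1.1, the other transcripts of the gene summed to 279.1 and 285 FPKM in untreated and to 321 and 350 FPKM in 5-AZA samples.

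Tpm1.8 (NM_001164252.1), a short cytoskeletal isoform, was at 32.7 and 30.7 FPKM in untreated and at 27.5 and 37.2 FPKM in 5-AZA samples. The untreated values lay inside the 5-AZA range, and the log2 difference was 0.01 ± 0.17 (SE, adjusted p = 0.985, limma), turning to -0.0105, -0.12 and -0.09 when samples were scaled to a common sum, centred on their medians or quantile normalized. Tpm1.13 (NM_001164254.1), named here after its values were seen because it was called, was at 0.0929 and 0.150 FPKM and then at 6.54 and 12.4 FPKM (log2 change 5.38 ± 0.46, SE, adjusted p = 0.00772, limma). The predicted variant X2 of Tpm1, also named after its values were seen, was at 5.81 and 7.72 FPKM and then at 16.3 and 26.3 FPKM, and it missed the threshold (adjusted p = 0.0531, limma). The other 20 Tpm1 transcripts did not exceed 5.82 FPKM in any sample.

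In Tpm2, 2 of 4 transcripts made up most of the rise. Tpm2.2 (NM_009416.4), beta tropomyosin of skeletal muscle, was at 1.99 and 3.133 FPKM in untreated and at 34.4 and 49.8 FPKM in 5-AZA samples, a log2 change of 3.99 ± 0.29 (SE, adjusted p = 0.00509, limma). The predicted variant X1 (XM_006537780.1) was higher still, at 8.96 and 5.89 FPKM and then at 65.7 and 108 FPKM (log2 change 3.52 ± 0.30, SE, adjusted p = 0.00762, limma). For both transcripts the groups were far apart. X1 accounted for 61.5% of the difference between the group means of the Tpm2 sum and Tpm2.2 for 30.6%. Over curated transcripts only the log2 change of Tpm2 was 1.69 (adjusted p = 5.88e-04, limma) in place of 2.40.

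The other 2 Tpm2 transcripts were not called. Tpm2.3 (NM_001277875.1), which led in untreated cells, was at 15.7 and 14.5 FPKM and then at 25.1 and 29.6 FPKM. Its log2 difference of 0.85 ± 0.14 (SE, adjusted p = 0.0497, limma) was below a 2-fold change. The cytoskeletal Tpm2.1 (NM_001277876.1) was at 3.75 and 4.69 FPKM and then at 2.57 and 1.73 FPKM, with both 5-AZA values below both untreated ones, and did not pass the test (adjusted p = 0.221, limma).

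The Tpm3 sum, which did not pass the test, held 2 transcripts that were called higher. Tpm3.12 (NM_001293748.1), gamma tropomyosin of slow skeletal muscle, was listed at 6.03e-22 and 1.04e-21 FPKM in the untreated samples, effectively at 0, and at 4.65 and 6.499 FPKM in 5-AZA samples (log2 change on the scale with 0.1 FPKM added 5.81 ± 0.51, SE, adjusted p = 0.00788, limma). Tpm3.13 (NM_022314.3) was at 0.00256 and 0.00769 FPKM and then at 6.63 and 15.1 FPKM (log2 change 6.59 ± 0.55, SE, adjusted p = 0.00675, limma). The size of these log2 changes depends on the value added before the log, at 9.11 for Tpm3.12 and 9.39 for Tpm3.13 with 0.01 FPKM added and at 2.70 and 3.46 with 1 FPKM added. No fold change is given for these 2 transcripts, since their untreated values are effectively at 0. Together they summed to 11.3 and 21.6 FPKM in the 5-AZA samples, and the other Tpm3 transcripts summed to 102 and 97.2 FPKM in untreated and to 78.9 and 78.2 FPKM in 5-AZA samples.

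Tpm3.1 (NM_001253738.1), the leading cytoskeletal isoform of Tpm3, was at 74.6 and 55.2 FPKM in untreated and at 52.0 and 54.3 FPKM in 5-AZA samples, and the difference did not pass the test (log2 difference -0.27 ± 0.16, SE, adjusted p = 0.492, limma). The predicted variant X9 (XM_006501841.3) was at 12.7 and 30.1 FPKM and then at 14.2 and 11.9 FPKM, so that the untreated replicates were more than 2-fold apart. Summed, Tpm3.1 and X9 were at 87.3 and 85.3 FPKM in untreated and at 66.2 and 66.3 FPKM in 5-AZA samples. The replicates therefore differed in the division between these 2 transcripts and hardly in their sum. Tpm3.2 (NM_001253740.1), another cytoskeletal isoform, was at 6.67 and 4.52 FPKM and then at 6.94 and 6.92 FPKM (adjusted p = 0.577, limma). The other 8 Tpm3 transcripts did not exceed 5.28 FPKM in any sample. Processed copies of Tpm3 exist in the mouse genome (RefSeq lists Tpm3-rs2, Tpm3-rs3 and Tpm3-rs7 as pseudogenes), and reads shared with them cannot be told apart here.

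The calls of single transcripts depended on which samples were in the fit. Without 5-AZA replicate 101 and without 5-AZA replicate 102 0 of all transcripts were called, and the adjusted p of Tpm1.1 became 0.185 and 0.237, while its log2 changes were 6.19 and 5.48. Without untreated replicate 1 and without untreated replicate 2, 177 and 105 of all transcripts were called, among them Tpm1.1 in both fits (adjusted p = 0.0317 and 0.0400, limma) and Tpm2.2 in the first (adjusted p = 0.0494, limma). Tpm1.13 was part of these fits, but its values in them were not listed. For the other called transcripts, the log2 changes were at least 3.16 (Tpm2 X1) in every fit that left out a sample. Tpm3.12 and Tpm3.13 lost their call without untreated replicate 1 and without untreated replicate 2. Tpm2 X1 lost it without either untreated sample (adjusted p = 0.0628 and 0.0975, limma), and Tpm2.2 without untreated replicate 2 (adjusted p = 0.0501, limma). With low values kept in the test, the count of calls was also 0 (adjusted p = 0.119 for Tpm1.1, limma), and Tpm2 X1 also missed the threshold without the trend in eBayes (adjusted p = 0.0667, limma).

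**Figure D2:**
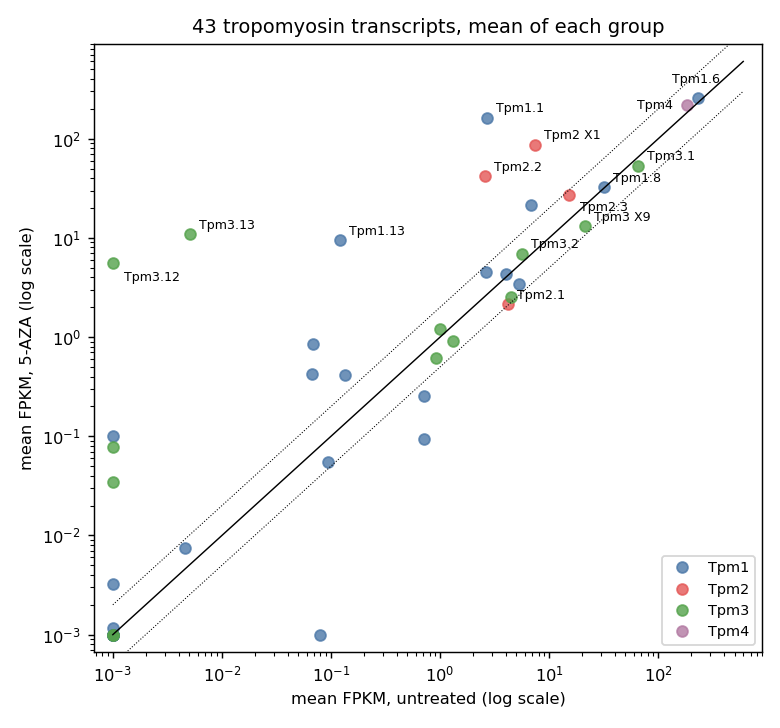
Mean FPKM of the 43 tropomyosin transcripts in untreated (x axis) and 5-AZA samples (y axis), both on log scales, with values below 0.001 FPKM drawn at 0.001. The solid line marks equal levels and the dotted lines a 2-fold difference. Tpm1.1, Tpm1.13, Tpm2.2, Tpm2 X1, Tpm3.12 and Tpm3.13 lie far above the line, whereas Tpm1.6, Tpm1.8 and Tpm4 lie close to it.

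The share of a transcript in the summed FPKM of its gene sets a change among the isoforms apart from a change of the gene sum. In these bulk samples, a change of isoforms within cells and isoforms added by other cells cannot be told apart in a share. Tpm1.1 held 0.836% and 1.06% of Tpm1 in untreated and 27.9% and 36.7% in 5-AZA samples, while Tpm1.6 held 80.1% and 81.1% and then 57.6% and 47.0%. The share of Tpm1.8 was 11.6% and 10.7% and then 6.19% and 6.73%. In Tpm2 the leading transcript differed between the groups, with Tpm2.3 at 51.6% and 51.4% in untreated samples and X1 at 51.4% and 57.1% after 5-AZA. Tpm2.3 was then at 19.6% and 15.6%, and Tpm2.2 was at 6.56% and 11.1% in untreated and at 26.9% and 26.3% in 5-AZA samples. Tpm2.1 held 12.3% and 16.6% of Tpm2 in untreated and 2.01% and 0.913% in 5-AZA samples.

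In Tpm3, Tpm3.12 and Tpm3.13 together held 0.00250% and 0.00792% in untreated and 12.5% and 21.6% in 5-AZA samples. Tpm3.1 led in all 4 samples, with 73.1% and 56.8% and then 57.7% and 54.5%, and its groups overlapped. The shares of Tpm1.1, Tpm1.6, Tpm1.8 and the 4 Tpm2 transcripts did not overlap between the groups. Nor did the tested shares of Tpm1 X2, Tpm3.2, Tpm3.5, Tpm3.12 and Tpm3.13, whereas those of Tpm3 X9 overlapped. Over all genes, 36.9% of the 27926 transcripts whose shares were tested did not overlap. Tpm1.1, Tpm2.1, Tpm3.12 and Tpm3.13 reached the limit for this test through 1 group only, so these separations are not read as support.

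The shares were tested in more than 1 way, each with Benjamini-Hochberg adjustment over all transcripts tested, and the calls differed. With limma on the arcsine of the square root of the share, 0 of 27926 transcripts (0%) were called, 2008 had an unadjusted p below 0.05, and Tpm1.1 had an adjusted p of 0.318 for a difference of 31.3 percentage points. limma's diffSplice, which compares the log2 change of a transcript with that of the gene's other transcripts and pools the spread over them, called 198 transcripts, or 0.721% of those tested (0.397% higher and 0.324% lower), with more than 10 percentage points of difference. Of the 14 tropomyosin transcripts with a mean share of at least 2%, diffSplice called 6, with Tpm1.1 (adjusted p = 2.00e-04), Tpm2.2 (adjusted p = 0.0115), Tpm2 X1 (adjusted p = 0.0377) and Tpm3.13 (adjusted p = 2.93e-05) higher, and Tpm1.6 (adjusted p = 0.0199) and Tpm2.1 (adjusted p = 0.00273) lower relative to the other transcripts. Tpm3.12 had an adjusted p of 1.70e-04 for a difference of 5.84 percentage points. Tpm1.1, Tpm3.12 and Tpm3.13 had a mean share below 2% in untreated samples and reached the limit through their 5-AZA samples only, and Tpm2.1 through its untreated samples only, so the count of 6 is not read as support.

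**Figure D3:**
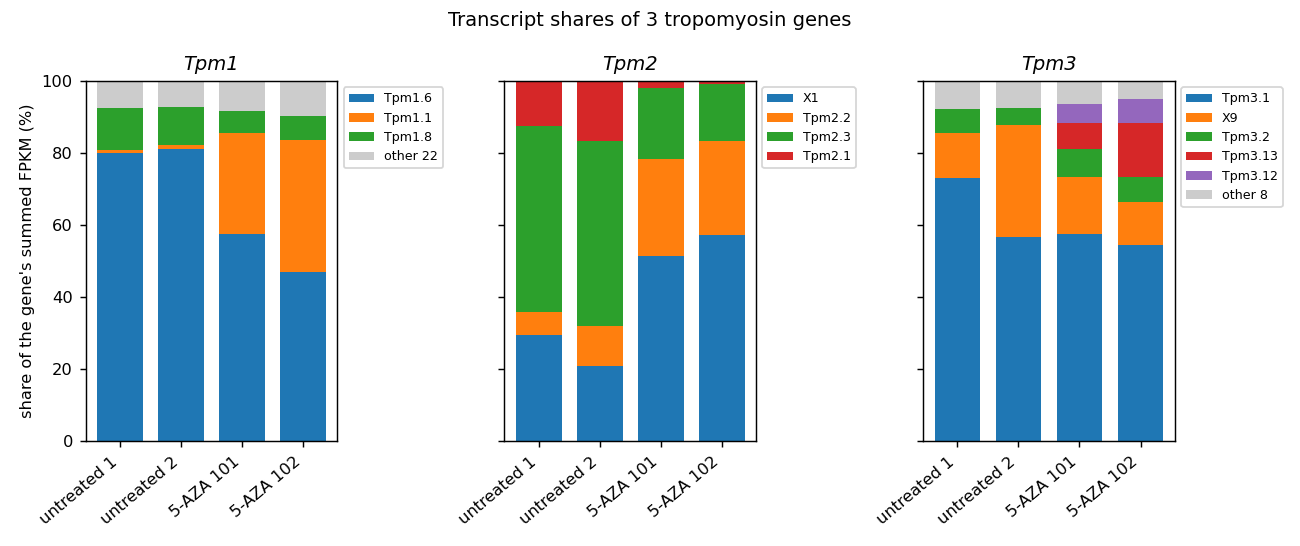
Shares of the single transcripts in the summed FPKM of Tpm1, Tpm2 and Tpm3 in percent, with 1 bar per sample and the transcripts below a mean share of 5% in both groups joined in grey. Tpm1.1 takes 0.836% to 1.06% of Tpm1 in untreated and 27.9% to 36.7% in 5-AZA samples, and Tpm3.12 and Tpm3.13 are visible in the 5-AZA bars only.

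Grouped by the known role of the isoform, with transcripts of no assigned role kept apart, Tpm1.1, Tpm2.2 and Tpm3.12 summed to 4.35 and 6.17 FPKM in untreated and to 163 and 259 FPKM in 5-AZA samples. This was 0.715% and 1.05% of the tropomyosin level in untreated and 18.3% and 24.7% in 5-AZA samples. The 8 cytoskeletal isoforms summed to 545 and 508 FPKM and then to 575 and 571 FPKM. Their share was 89.6% and 86.5% and then 64.7% and 54.4%, so that the share was lower in both 5-AZA samples although the level was not. The 23 predicted variants held 5.80% and 8.96% and then 11.8% and 14.8%, and the 9 other curated transcripts 3.92% and 3.54% and then 5.18% and 6.06%. The division by role was made with the values known, and no test was applied to it.

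The 6 transcripts called higher summed to 13.4 and 12.2 FPKM in untreated and to 242 and 394 FPKM in 5-AZA samples. The 37 other tropomyosin transcripts summed to 595 and 575 FPKM and then to 647 and 654 FPKM. This division was made by the calls on these same samples, so the contrast between its parts is not read as support. Each of the 6 was higher in replicate 102 than in replicate 101, from 1.40-fold for Tpm3.12 to 2.27-fold for Tpm3.13. The same ratio was 1.01 for Tpm1.6, 1.04 for Tpm3.1, 0.914 for Tpm4 and 1.35 for Tpm1.8, but 1.61 for Tpm1 X2, which is not among the 6 and lies above Tpm3.12 and Tpm2.2 (1.45). It was 1.54 for the sum of the skeletal muscle markers, 1.45 for the sum of 8 troponin genes and 1.37 for the sum of the adipocyte markers. The part of the cell composition of the replicates in these values was not tested.

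**Figure D4:**
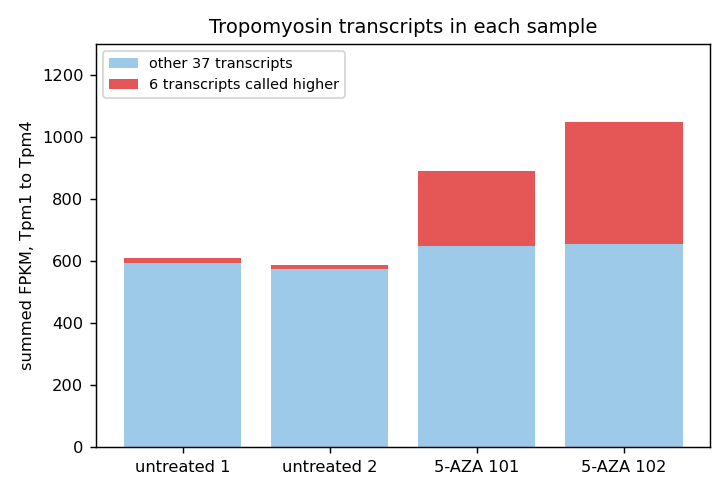
Summed FPKM of all tropomyosin transcripts in each sample, divided into the 6 transcripts called higher after 5-AZA (red) and the other 37 (blue). The red part is 12.2 to 13.4 FPKM in untreated and 242 to 394 FPKM in 5-AZA samples, and the blue part 575 to 595 and 647 to 654 FPKM. The parts were divided by the calls on these same samples.

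The partners of tropomyosin on the actin filament were described from 5 gene lists, as counts beside the 13.1% of all genes tested that were called higher and the median log2 change of all genes tested, 0.05. Tnni2, Actc1, Lmod2, Lmod3, Cnn1, Rbm24 and Rbm38 had untreated means below 0.1 FPKM and entered the test through their 5-AZA samples only, so the counts of their lists are not read as support. Troponin, the calcium switch that sits on striated muscle tropomyosin, had all 8 genes called higher (median 6.27). Tnnc2 (fast troponin C) rose from 0.225 and 0.106 to 128 and 180 FPKM (adjusted p = 1.82e-07, limma), and Tnni2 (fast troponin I) from 0.128 and 0.0538 to 64.0 and 100 FPKM (adjusted p = 2.98e-07, limma). For actin, 3 of 6 genes passed as higher, and the median was 1.19. Acta1 of skeletal muscle rose from 0.369 and 0.211 to 182 and 312 FPKM (adjusted p = 2.23e-07, limma) and Actc1, the cardiac actin that is also made in developing skeletal muscle, from 0.0515 and 0.0728 to 61.6 and 89.2 FPKM (adjusted p = 1.66e-07, limma). In the 5-AZA samples the 3 striated tropomyosin isoforms amounted to 0.669 and 0.645 of the summed FPKM of Acta1 and Actc1, while in the untreated samples, where Acta1 and Actc1 summed to 0.420 and 0.284 FPKM, this ratio was 10.3 and 21.8.

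Tropomodulins cap the slow-growing end of actin filaments together with tropomyosin, and leiomodins start new filaments there. Calls were made for 3 of these 7 genes, all higher, and the median log2 change was 0.81. Lmod3 was listed at 0 in both untreated samples and at 4.18 and 6.40 FPKM after 5-AZA (adjusted p = 4.81e-06, limma), and Lmod2 rose from 0.00988 and 0.00960 to 2.39 and 3.86 FPKM (adjusted p = 1.51e-05, limma). Among the 7 caldesmon, calponin and transgelin genes, which bind actin in smooth muscle and other contractile cells, calls were made for 2, both higher, and the median was 0.23. Tagln rose from 0.530 and 0.321 to 10.3 and 13.5 FPKM (adjusted p = 5.47e-06, limma) and Cnn1 from 0 and 0.0212 to 1.23 and 1.07 FPKM (adjusted p = 1.13e-04, limma).

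Of 18 genes for splicing regulators that include the known regulators of tropomyosin exons, 13 were tested and 2 passed, both of them higher, a share near the 13.1% of all genes, while the median log2 change was -0.05. Rbm24, an RNA-binding protein of striated muscle, was listed at 0 in both untreated samples and at 1.52 and 1.43 FPKM after 5-AZA (adjusted p = 4.10e-05, limma). Rbm38, a related protein, rose from 0.0776 and 0.0971 to 1.11 and 2.12 FPKM (adjusted p = 3.46e-04, limma). Ptbp1, which is known to repress muscle exons of tropomyosin transcripts, is named here after its values were seen, like the regulators that follow. It was at 41.9 and 38.9 FPKM in untreated and at 37.1 and 40.2 FPKM in 5-AZA samples (adjusted p = 0.707, limma). Celf2 was higher (log2 difference 0.60, adjusted p = 0.00881, limma), below a 2-fold change. Rbfox2 was higher and Ptbp3, Raver1, Mbnl1, Mbnl2 and Qk were lower without overlap of the groups, and none passed the test. Ptbp2, Celf1 and Rbm4 overlapped. Over all genes tested, 62.2% did not overlap. The part of these regulators in the isoforms was not tested.

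**Figure D5:**
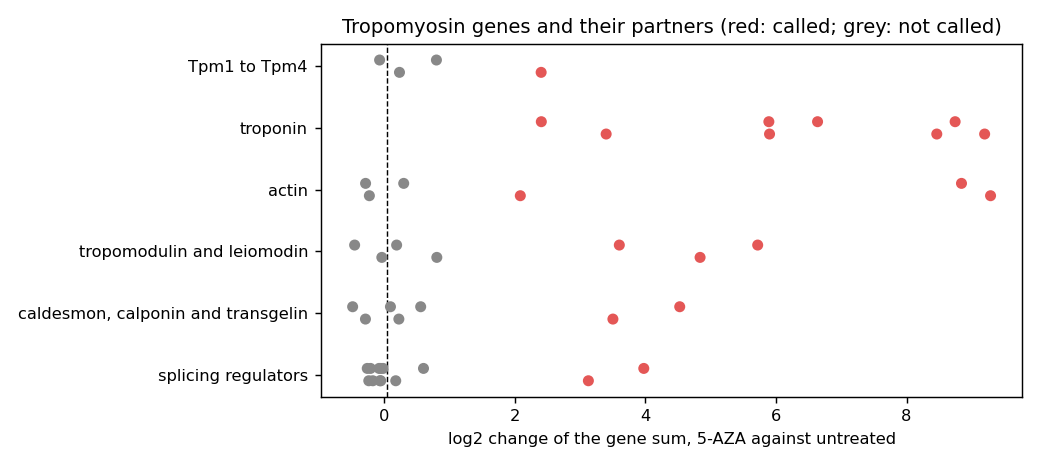
Log2 change of the gene sums after 5-AZA (x axis) for the 4 tropomyosin genes and for the tested genes of the 5 partner lists, with 1 point per gene, red where called and grey where not. The dashed line marks the median of 0.05 over all genes tested. All 8 troponin genes are red, and Tpm2 is the only red point among the tropomyosin genes.

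The genes nearest to each tropomyosin gene were found by the Euclidean distance between log2 sums centred on the gene's own mean, over the 4 samples and among 5100 genes with a mean of at least 10 FPKM. Slc23a2 (distance 0.00897), Clu (0.0504) and Txnip (0.0571) were nearest to Tpm1, with Slc23a2 at 9.002 and 9.21 and then at 14.3 and 17.6 FPKM. Cdo1 (0.137), Acsl1 (0.181) and Thbs1 (0.182) were nearest to Tpm2. Eif4h (0.00915), B3gat3 (0.0136) and Ikbkap (0.0157) were nearest to Tpm3, and Csgalnact2 (0.0221), Dmxl1 (0.0235) and Phip (0.0285) to Tpm4. With 4 samples this likeness is a description of these values only.

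Of 4295 circRNAs listed, 1 has a tropomyosin transcript as its host in the authors' annotation. It is circRNA_4059, of 532 bases, assigned to the predicted variant X14 of Tpm1. It was at 0.0323 RPM in untreated replicate 1 and was listed at 0 in the other 3 samples.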

How the data were processed

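Total RNA of 2 untreated and 2 5-AZA-treated C3H10T1/2 samples was depleted of ribosomal RNA and sequenced with a stranded protocol. The authors trimmed the reads with Trimmomatic, and the submitters' processing notes also list HISAT2, Bowtie2 2.2.9, eXpress 1.5.1 and the build mm9, without their roles. The authors deposited FPKM values per mRNA and lncRNA transcript and RPM values per circRNA, each sample in a column of its own. The lncRNA values were not used here, and because RPM could not be turned back into reads, the RPM of circRNAs are given in place of the reads planned. FPKM keep no counts, so the depth behind a value and a counting interval are unknown. Because isoforms share exons, the quantification divides reads among them, and this division can shift single transcripts while the gene sum stays.

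Transcripts were summed per gene before the log. Log2 values (0.1 FPKM added) of features averaging 0.1 FPKM or more were fitted with limma 3.58.1 (lmFit, eBayes with trend) in R 4.3.3, with adjustment over all features tested. Shares were tested for transcripts with a mean share of at least 2% in genes with a mean sum of at least 1 FPKM, and were called above 10 percentage points. Fits were also run on simulated data, with the spread of transcripts capped in the simulation of shares, and this is not read as support for the calls. Groups follow the labels' treatment. Transcripts with a mean share of at least 5% in either group are named, and from each partner list the 2 largest rises and falls among the calls. The members, lists and rules were chosen with earlier results of these data known. Alternatives were other pseudocounts, limits, scalings and share tests, eBayes without trend, curated transcripts only and leaving out each sample. Figures were drawn with matplotlib 3.10.9.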

Additional observations from a re-analysis of the deposited data

How the results depend on the processing

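No paired analysis was possible because the groups share no replicate numbers. Of 377 values under alternatives, 326 kept their direction and side of the threshold, or their size. A feature not called in the main fit counts as kept where it stays uncalled in the same direction, which applies to every share. The called transcripts followed here kept their call less often, from 6 of 12 alternative fits for Tpm2 X1 to 9 of 12 for Tpm1.1. Tpm2 was called in all 13 fits of its sum, with log2 changes from 1.69 to 2.69, and Tpm1 and Tpm4 were called in none. Among all genes, 1898 were called, against 961 with 1 FPKM added, 1262 without the limit on low values, 967 with a mean of at least 1 FPKM and 803 to 1801 with a sample left out. Of these calls 1724 were higher and 174 lower, and 1041 and 886 after quantile normalization, which moved the median log2 change of all genes from 0.05 to -0.12. Among all transcripts, 838 were called, against 0 without the limit on low values (adjusted p = 0.119 for Tpm1.1) and 0 to 177 with a sample left out, and fewer samples leave fewer degrees of freedom. Centring on the median gave 707 higher and 164 lower transcripts in place of 745 and 93. For shares, diffSplice called 198 and the limit of 10 FPKM gave 2, against 0. The striated isoforms' gain of 20.6 percentage points was 17.5 to 23.8 with a sample left out.

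Among values that did not pass, Tpm1.8 (log2 0.01) turned to -0.0105 after scaling to a common sum, -0.12 after centring and -0.0881 after quantile normalization, and ranged from -0.20 to 0.23 with a sample left out. Tpm3 (log2 -0.07) ranged from -0.14 to 0.00309 with a sample left out and was 0.0898 over curated transcripts. Tpm3 X9 ranged from -1.20 to 0.0334 on the log2 scale and from -17.1 to 1.39 percentage points with a sample left out. The diffSplice value of Tpm3.2 was -1.83 against 1.72 percentage points, a relative log2 change in place of a share. The cause of these turns was not tested.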
